A study of Mus musculus with 48 samples.

Results

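The comparison described here asks whether an extract of e-cigarette vapour made from a nicotine-containing liquid acted differently on gene expression in alveolar epithelial type II cells (AECII) of the mouse and in its pulmonary arterial smooth muscle cells (PASMC). For every gene the PASMC response (18mg minus Ctrl) was subtracted from the AECII response (18mg minus Ctrl). This quantity is called the response difference below, and a positive value means a higher response in AECII than in PASMC, whatever the expression levels. It was taken from 32 of the 48 arrays of the series, 8 each of AECII.18mg, AECII.Ctrl, PASMC.18mg and PASMC.Ctrl, with each gene read from its probe of highest mean. All cells came from C57Bl/6J mice, 8 in number per the series design. In the 18mg groups the cells received 15% e-cigarette vapour extract (ECVE) for 24 h, whose source liquid held nicotine at 18 mg/ml; the Ctrl groups are labelled room air. AECII were plated at 300000 cells per well in 10% serum and exposed 24 h after isolation, whereas PASMC were left for 5 days, then passaged in medium with 15% serum. Cell type and culture conditions therefore cannot be told apart. The remaining 16 arrays hold cells given an extract of a liquid with 0 mg/ml nicotine and are used only for values set beside these.

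AECII line the alveolus, make surfactant and store it in lamellar bodies, which are organelles related to lysosomes. PASMC form the contractile wall of the pulmonary artery and adjust vessel calibre. Lysosomes digest proteins, glycans and lipids with acid hydrolases, in a lumen that a proton pump, the V-ATPase, keeps acidic. The transcription factor TFEB and its relatives drive many lysosomal and autophagy genes through the CLEAR element, which is built around the letters CACGTG, and folliculin with its partners FNIP1 and FNIP2 takes part in the nutrient signalling that holds TFEB in the cytoplasm. NRF2 drives antioxidant and detoxifying genes after oxidants or electrophiles modify its inhibitor KEAP1. Nicotine itself binds nicotinic acetylcholine receptors, which are ion channels built from 5 subunits.

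The arrays are single-colour Agilent arrays whose deposited values are log2 intensities that had been brought to a common distribution, with a median of 2.98 and an upper quartile of 5.78 on each array. After 1 probe was kept per gene there were 20738 genes, and the 14753 with a mean over the 32 arrays above 2.73 were tested. Arrays of 1 group correlated across genes at 0.977 to 0.984 in AECII.18mg, 0.975 to 0.986 in AECII.Ctrl, 0.94 to 0.985 in PASMC.18mg and 0.937 to 0.986 in PASMC.Ctrl. The spread within groups was wider in PASMC for 64.0% of the genes, with a median of 0.311 in AECII and 0.373 in PASMC. Arrays carry the numbers 1 to 8 within a group, but no label says which mouse each came from, so p-values measure only the spread between these arrays. The type II marker Sftpc was at 13.99, 14.24 and 14.86 (lowest, median and highest array) in AECII.18mg and at 13.80, 14.42 and 14.65 in AECII.Ctrl. In PASMC it ran from 2.00 to 11.21 in 18mg and from 1.72 to 11.28 in Ctrl, and 7 PASMC arrays, 4 of them 18mg and 3 Ctrl, lay above 6. The smooth muscle marker Acta2 averaged 14.96 ± 0.44 in PASMC.18mg and 14.98 ± 0.34 in PASMC.Ctrl (SD, n = 8 each). In AECII it averaged 11.66 in 18mg and 11.71 in Ctrl. The fibroblast marker list averaged 9.84 in PASMC.18mg and 9.86 in PASMC.Ctrl, near the smooth muscle list at 10.09 and 9.92. The AECII cultures also carried club cell and mesothelial transcripts: Scgb1a1 averaged 15.76 in AECII.18mg and 15.73 in AECII.Ctrl, and Msln 14.17 in AECII.18mg and 14.16 in AECII.Ctrl. As whole lists, type II markers averaged 9.38 in AECII.18mg and 9.37 in AECII.Ctrl, and airway markers 7.87 and 7.90. Mesothelial markers averaged 10.61 and 10.54 and alveolar type I markers 10.04 and 10.12, in the same order. Means of different genes do not rank the cells by number. In such bulk samples, fewer cells of a type and less RNA per cell cannot be told apart.

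No gene differed between the cell types in its response once p-values were adjusted. With limma's moderated test and Benjamini-Hochberg adjustment, 0 of 14753 genes were called in either direction (0%), and the smallest adjusted p was 0.501. At an unadjusted p under 0.05 there were 390 genes (2.64%), 270 with a positive response difference (1.83%) and 120 with a negative one (0.813%). By chance about 5% of genes would be expected at this level, more than here and in either cell type below. These counts therefore show no excess of genes. Of all genes tested, 51% had a response difference above 0. The response of AECII on its own also gave 0 called genes, with 312 at an unadjusted p under 0.05 (2.11%), 190 of them higher in AECII.18mg (1.29%) and 122 lower (0.827%), and 54.6% of genes lay above 0. In PASMC 4 genes were called (0.0271%), all lower in PASMC.18mg, and 664 genes were at an unadjusted p under 0.05 (4.5%), with 283 higher (1.92%), 381 lower (2.58%) and 51.7% above 0. Across the 14753 genes the AECII and PASMC responses correlated at a Pearson r of 0.079 and a Spearman rho of 0.089, and 54.8% had the same sign. This is a description across genes of the same arrays, which are not independent replicates.

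**Figure D1:**
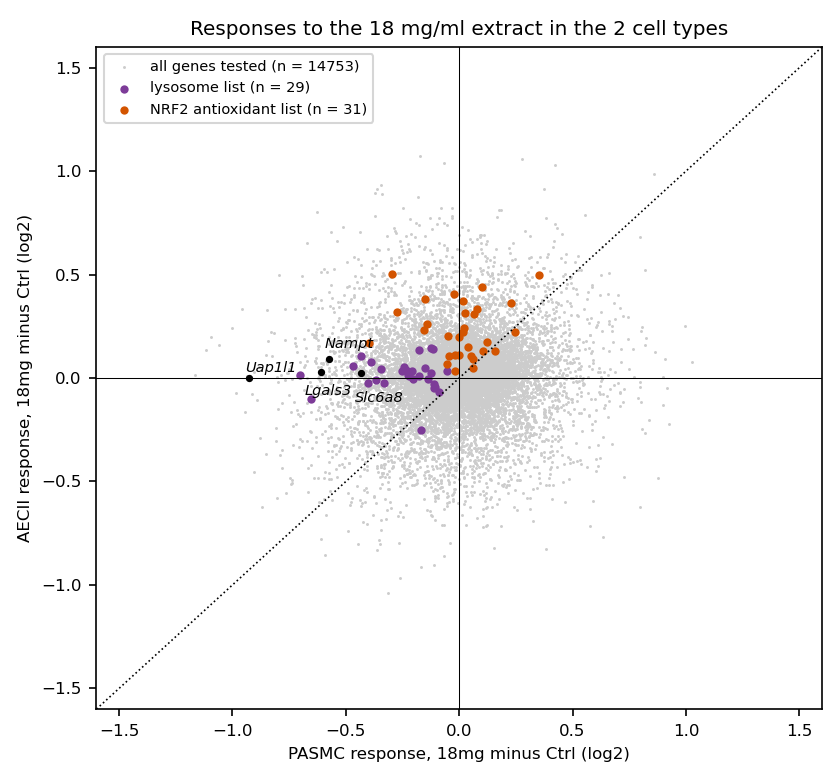
Response of each of the 14753 tested genes in PASMC (horizontal axis, log2 difference 18mg minus Ctrl) and in AECII (vertical axis, same scale); the dotted line marks equal responses. The 29 lysosome genes (purple) lie to the left of 0 in PASMC and around 0 in AECII, whereas the 31 NRF2 genes (orange) lie above 0 in AECII and around 0 in PASMC; the 4 genes called in PASMC are named in black.

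Of the 4 genes called in PASMC, Nampt also had the smallest p of all genes in the response difference. It encodes the rate-limiting enzyme of NAD salvage from nicotinamide. In AECII, Nampt stood at 7.98, 8.17 and 8.54 in 18mg arrays and at 7.77, 8.18 and 8.36 in Ctrl arrays (lowest, median and highest, log2). In PASMC it stood at 7.28, 7.42 and 7.75 in 18mg arrays and at 7.77, 8.05 and 8.35 in Ctrl arrays. The groups overlapped in AECII and did not in PASMC, which held for 7 of all tested genes in PASMC (0.0474%) and for 1 in AECII (0.00678%). Nampt fell in PASMC to 0.672 of control, a log2 change of -0.57 (SE 0.10, adjusted p = 0.0155), against 0.09 (SE 0.10) in AECII. The response difference was 0.67 (95% interval 0.39 to 0.95, unadjusted p = 3.4e-05, adjusted p = 0.501), so the difference itself was not called.

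Uap1l1 encodes a protein related to the pyrophosphorylase that makes UDP-N-acetylglucosamine. It stood at 9.75, 10.42 and 10.92 in AECII.18mg arrays and at 9.90, 10.36 and 10.85 in AECII.Ctrl arrays. In PASMC.18mg arrays it stood at 9.62, 9.87 and 10.05, against 10.16, 10.87 and 11.15 in PASMC.Ctrl arrays. Every PASMC.18mg array lay below every PASMC.Ctrl array, and the AECII groups overlapped almost completely. Uap1l1 fell by 0.93 on the log2 scale in PASMC (SE 0.16, adjusted p = 0.0155), was at 0.00 in AECII (SE 0.16), and had the largest response difference of the 4, 0.93 (interval 0.47 to 1.38, adjusted p = 0.557).

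Slc6a8, the carrier that takes creatine into cells, was at 10.75, 10.99 and 11.07 in AECII.18mg and at 10.66, 10.99 and 11.09 in AECII.Ctrl. In PASMC it was at 11.50, 11.82 and 12.00 in 18mg and at 11.98, 12.24 and 12.44 in Ctrl. The PASMC groups met only at the highest 18mg and the lowest Ctrl array. Slc6a8 fell by 0.43 in PASMC (SE 0.08, adjusted p = 0.0177), against 0.02 in AECII (SE 0.08), a response difference of 0.46 (interval 0.23 to 0.68, adjusted p = 0.557). Lgals3 encodes galectin-3, a lectin that gathers on damaged lysosomes. It was at 14.19, 14.46 and 14.50 in AECII.18mg and at 14.24, 14.36 and 14.50 in AECII.Ctrl. In PASMC it was at 11.83, 12.30 and 12.64 in 18mg, against 12.50, 12.78 and 13.23 in Ctrl, with a narrow overlap. Lgals3 fell by 0.61 in PASMC (SE 0.11, adjusted p = 0.0177), against 0.03 in AECII (SE 0.11), a response difference of 0.64 (interval 0.32 to 0.95, adjusted p = 0.557).

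With 1 array left out, Nampt and Uap1l1 were each called in 31 of 32 fits, Lgals3 in 29 and Slc6a8 in 26, and the changes ran from -0.61 to -0.53 for Nampt and from -1.02 to -0.87 for Uap1l1. Of these fits 16 left out an AECII array, which cannot alter a PASMC change, and all calls were kept there. Every lost call fell in the 16 fits without a PASMC array, so the counts out of 32 overstate stability. No gene was called in PASMC when each cell type was given a spread of its own, when PASMC.Ctrl array 5 was left out, or when the 7 PASMC arrays with Sftpc above 6 were left out. An own spread leaves each change as it was, and without PASMC.Ctrl array 5 the changes were -0.57 for Nampt, -0.88 for Uap1l1, -0.56 for Lgals3 and -0.43 for Slc6a8. In the last setting, which keeps 4 PASMC.18mg and 5 PASMC.Ctrl arrays and was chosen after seeing the data, the changes were -0.60 for Nampt, -0.98 for Uap1l1, -0.58 for Lgals3 and -0.45 for Slc6a8. Leaving out PASMC.Ctrl array 2 gave 6 called genes.

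**Figure D2:**
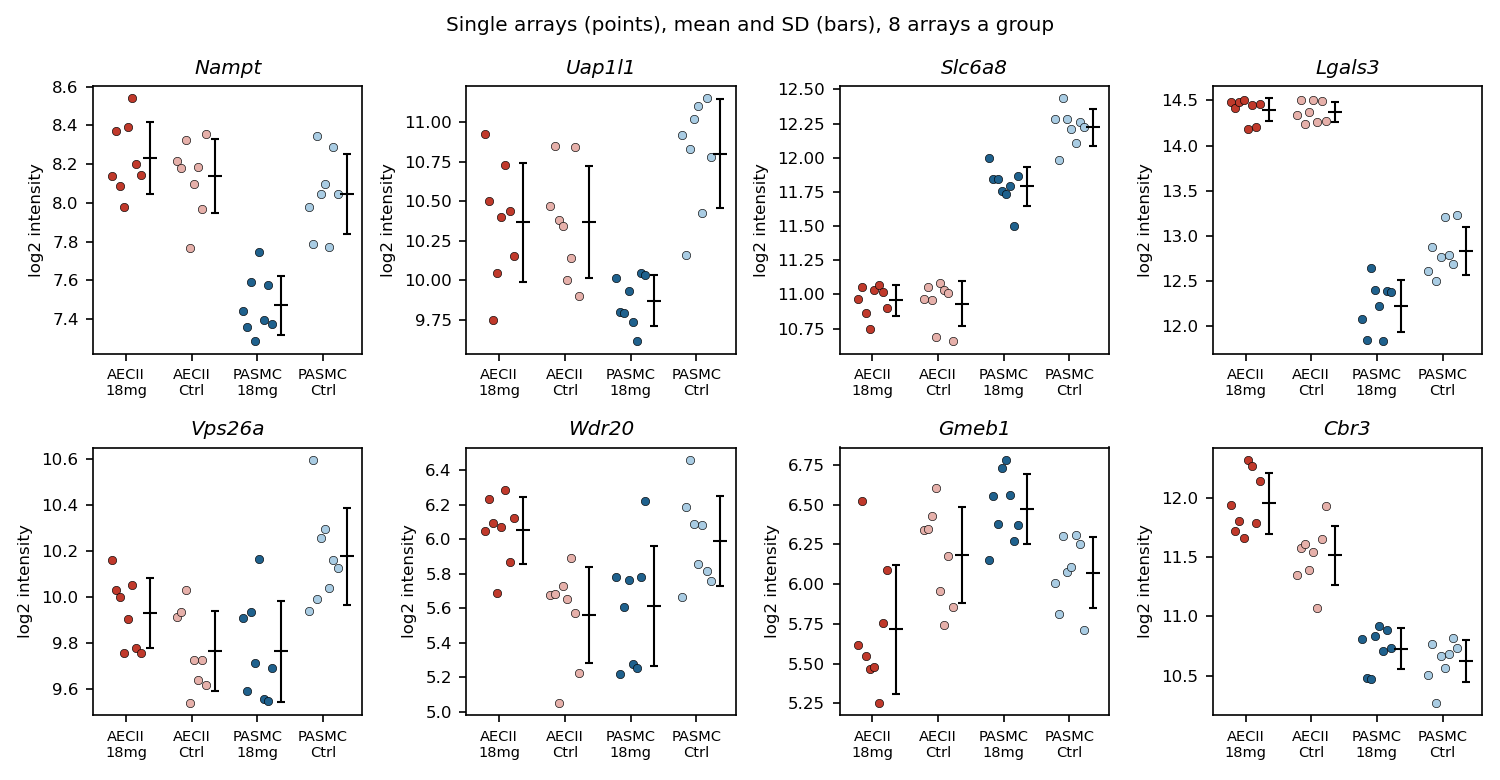
Log2 intensity of 8 genes on single arrays (points), with the mean and SD of the 8 arrays of each group (bars); groups run from left to right as AECII.18mg, AECII.Ctrl, PASMC.18mg and PASMC.Ctrl, and each panel has its own vertical scale that does not start at 0. Nampt and Uap1l1 do not overlap between the PASMC groups, the means of Wdr20 and Gmeb1 differ in opposite directions in the 2 cell types, and Cbr3 is higher in AECII.18mg on all 8 arrays than the AECII.Ctrl mean.

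The 10 genes with the smallest p among those above the upper quartile of intensity in both cell types and higher in the response difference were the 4 above with Wdr20, Vps26a, Kazn, Cpeb1, Ostm1 and Ugcg. Wdr20, a partner of the deubiquitinases USP12 and USP46, had the largest AECII component of the 10. It was at 5.69, 6.08 and 6.29 in AECII.18mg and at 5.05, 5.66 and 5.89 in AECII.Ctrl, and at 5.22, 5.69 and 6.22 in PASMC.18mg against 5.66, 5.97 and 6.46 in PASMC.Ctrl. Groups overlapped in both cell types, and 8 of 8 AECII.18mg arrays lay above the AECII.Ctrl mean while 7 of 8 PASMC.18mg arrays lay below the PASMC.Ctrl mean. The response difference was 0.87 (interval 0.47 to 1.27, adjusted p = 0.557), made of 0.49 in AECII and -0.38 in PASMC, and it was 0.48 with the mean of all Wdr20 probes.

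Vps26a, a subunit of the retromer that returns receptors from endosomes, was at 9.76, 9.95 and 10.16 in AECII.18mg, against 9.54, 9.73 and 10.03 in AECII.Ctrl. It was at 9.55, 9.70 and 10.17 in PASMC.18mg, against 9.94, 10.14 and 10.60 in PASMC.Ctrl. The groups overlapped in both cell types, and the response difference was 0.58 (SE 0.14, adjusted p = 0.557). Ostm1, the lysosomal membrane partner of the chloride and proton exchanger ClC-7, had a response difference of 0.44 (SE 0.13), with 0.05 in AECII and -0.39 in PASMC. Ugcg, the synthase of glucosylceramide, had 0.48 (SE 0.15), with 0.15 in AECII and -0.32 in PASMC. Kazn, which encodes kazrin of epithelial cell junctions, had 0.73 (SE 0.21), and its PASMC groups did not overlap, at 5.66 to 6.30 in 18mg and 6.35 to 7.26 in Ctrl, but the mean of its probes gave only 0.19. Cpeb1, a binder of cytoplasmic polyadenylation elements, had 0.67 (SE 0.20). All 6 had adjusted p of 0.557 or above in the response difference, and in all 10 genes 7 or 8 of the 8 PASMC.18mg arrays lay below the PASMC.Ctrl mean. The genes were chosen by p on these same arrays, so such counts, also in the next paragraph, are no independent evidence.

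The 10 genes of smallest p on the negative side, again above the upper quartile in both cell types, were Gmeb1, E2f8, Zfp352, Ppil2, Exosc10, Dlgap5, Specc1l, Dok1, Fanca and Mtf2. Gmeb1, a factor that binds glucocorticoid modulatory elements, was at 5.25, 5.58 and 6.52 in AECII.18mg, against 5.74, 6.26 and 6.60 in AECII.Ctrl. It was at 6.15, 6.47 and 6.78 in PASMC.18mg, against 5.71, 6.09 and 6.31 in PASMC.Ctrl. Groups overlapped in both cell types, 7 of 8 AECII.18mg arrays lay below the AECII.Ctrl mean and 8 of 8 PASMC.18mg arrays above the PASMC.Ctrl mean. The response difference was -0.87 (interval -1.29 to -0.44, adjusted p = 0.557), and -0.42 with the mean of all its probes. Among the other 9 were E2f8, an atypical repressor of the E2F family (-0.53, SE 0.17), Dlgap5, a spindle protein (-0.60, SE 0.24), and Fanca of the Fanconi anaemia core complex (-0.35, SE 0.14). Specc1l, which links actin and microtubules, was the only 1 of the 10 with all 8 AECII.18mg arrays below the AECII.Ctrl mean, with a response difference of -0.57 (SE 0.23). With the mean of all probes Dlgap5 gave -0.35, Fanca -0.16 and Mtf2, an accessory subunit of Polycomb complex 2, -0.01.

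Lysosomal genes had the largest median response difference among 27 gene lists, and the difference lay in PASMC. Of 33 genes written down, 29 were on the array table used here and all 29 passed the filter. Their median response difference was 0.25, against 0.00 over all genes tested, and 28 of 29 were above 0. At an unadjusted p under 0.05, 12 of 29 (41.4%, against 1.83% of all genes) had a positive and 0 a negative response difference, and 0 passed adjustment over all genes in limma's test. In PASMC all 29 were lower in 18mg, with a median of -0.21 and 15 at an unadjusted p under 0.05 (against 2.58% of all genes), while the AECII median was 0.02 with 0 at that level in either direction. The list was written with earlier results on these arrays known, so its direction is no independent evidence.

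The mean over the 29 genes was 9.85, 9.99 and 10.18 in AECII.18mg and 9.83, 9.97 and 10.14 in AECII.Ctrl (lowest, median and highest array). In PASMC it was 10.35, 10.42 and 10.44 in 18mg, against 10.56, 10.65 and 10.76 in Ctrl. The AECII groups coincided, and all 8 PASMC.18mg arrays lay below all 8 PASMC.Ctrl arrays. For single genes, 13 of 29 (44.8%) had all 8 PASMC.18mg arrays below the PASMC.Ctrl mean, against 1.36% of all genes. Beside this, the markers of type II cells had a median change of 0.30 in PASMC, with list means of 4.82 to 6.78 in 18mg and 4.80 to 6.92 in Ctrl. Those of macrophages and other leukocytes had -0.03 in PASMC, with 4.72 to 8.26 in 18mg and 4.77 to 8.12 in Ctrl, and a median response difference of 0.22, while those of endothelium had -0.22 in PASMC, with 4.15 to 7.36 in 18mg and 4.44 to 7.54 in Ctrl. The ranges overlapped for all 3 marker lists. As single members, endothelial Pecam1 averaged 3.22 in PASMC.18mg and 3.52 in PASMC.Ctrl, close to the array median. Leukocyte Ptprc averaged 2.87 in PASMC.18mg and 3.19 in PASMC.Ctrl, also close to it. Other members were brighter, since the endothelial list averaged 5.23 in PASMC.18mg and 5.42 in PASMC.Ctrl. The leukocyte list averaged 6.08 in PASMC.18mg and 6.16 in PASMC.Ctrl. Without the 7 PASMC arrays of high Sftpc the lysosome median was 0.28, and the part of the marker levels in it was not tested further.

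**Figure D3:**
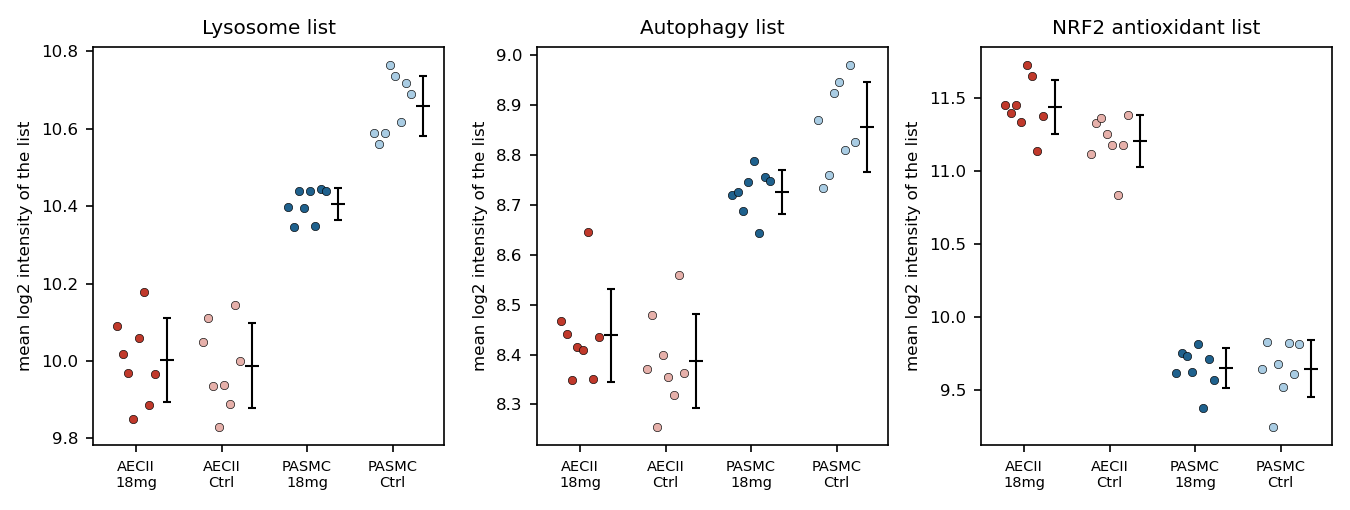
Mean log2 intensity over the tested genes of the lysosome (29), autophagy (22) and NRF2 antioxidant (31) lists on single arrays (points), with mean and SD per group of 8 arrays (bars); the vertical axes do not start at 0. The lysosome means of PASMC.18mg (10.35 to 10.44) lie below those of PASMC.Ctrl (10.56 to 10.76), whereas the NRF2 means separate only partly and only in AECII.

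By role, the V-ATPase subunits are Atp6v1a, Atp6v1h, Atp6v1b2, Atp6v0d1, Atp6v0a1 and the accessory Atp6ap1, the proteases are cathepsins L, K, A, B, Z and D with Tpp1, and the glycosidases include Neu1, Hexa, Gusb, Naglu, Glb1 and Gla. Beyond Neu1, Atp6v1a, Ctsl and Ctsk, members are named here after their values were seen. Neu1, the sialidase that works in a complex with cathepsin A, was at 10.39, 10.79 and 11.17 in AECII.18mg and at 10.29, 10.66 and 11.06 in AECII.Ctrl. It was at 9.65, 9.79 and 10.32 in PASMC.18mg, against 9.88, 10.31 and 10.57 in PASMC.Ctrl, and the groups overlapped in both cell types. Its response difference was 0.54 (SE 0.18, limma unadjusted p = 0.0043, adjusted p = 1.00), made of 0.11 in AECII and -0.44 in PASMC.

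Atp6v1a, the catalytic subunit of the pump, was at 10.10, 10.47 and 10.91 in AECII.18mg, against 10.14, 10.37 and 10.70 in AECII.Ctrl. It was at 10.38, 10.66 and 11.02 in PASMC.18mg, against 10.88, 11.07 and 11.24 in PASMC.Ctrl, with all 8 PASMC.18mg arrays below the Ctrl mean. Its response difference was 0.47 (SE 0.15, limma unadjusted p = 0.0044, adjusted p = 1.00). The other pump subunits had values from 0.19 for Atp6v0a1 to 0.55 for Atp6v1b2. Ctsl, cathepsin L, was at 12.59, 12.78 and 13.05 in AECII.18mg and at 12.61, 12.77 and 12.96 in AECII.Ctrl, and at 13.96, 14.07 and 14.22 in PASMC.18mg against 14.11, 14.33 and 14.62 in PASMC.Ctrl. Its response difference of 0.30 (SE 0.11, limma unadjusted p = 0.0081, adjusted p = 1.00) rested on -0.24 in PASMC. Ctsa, the partner of Neu1, had 0.31 (SE 0.13), and Naglu, which cleaves heparan sulfate, 0.39 (SE 0.21).

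Ctsk, a collagen-degrading cathepsin, had the largest response difference of the list, 0.72 (interval 0.13 to 1.31, limma unadjusted p = 0.018, adjusted p = 1.00). It was at 8.98, 9.88 and 10.49 in AECII.18mg and at 8.95, 9.83 and 10.63 in AECII.Ctrl. It was at 10.59, 11.03 and 11.11 in PASMC.18mg, against 11.12, 11.68 and 12.14 in PASMC.Ctrl, and these PASMC groups did not overlap. Grn, the precursor of lysosomal granulins, and Pip4p1, a phosphatase of late endosomes, belong to no list and are named because they were 2 of the 7 genes without overlap in PASMC. Grn reached at most 11.19 in PASMC.18mg and at least 11.22 in PASMC.Ctrl, and Pip4p1 at most 7.95 in PASMC.18mg and at least 8.01 in PASMC.Ctrl. The others were Ctsk, Kazn, Nampt, Uap1l1 and Ttc16, the last higher in PASMC.18mg, and Atp2a3 was the gene without overlap in AECII.

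Of the membrane and sorting proteins, the calcium channel Mcoln1 was at 0.29 (SE 0.11), Gnptg, a subunit of the phosphotransferase that builds the mannose 6-phosphate tag, at 0.36 (SE 0.14), and the abundant membrane glycoproteins Lamp1 at 0.15 (SE 0.11) and Lamp2 at 0.20 (SE 0.16). Tfeb itself was the 1 member below 0, at -0.08 (SE 0.39). Its PASMC change was -0.17 (SE 0.27), so a change of its transcript was not detectable at this precision.

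**Figure D4:**
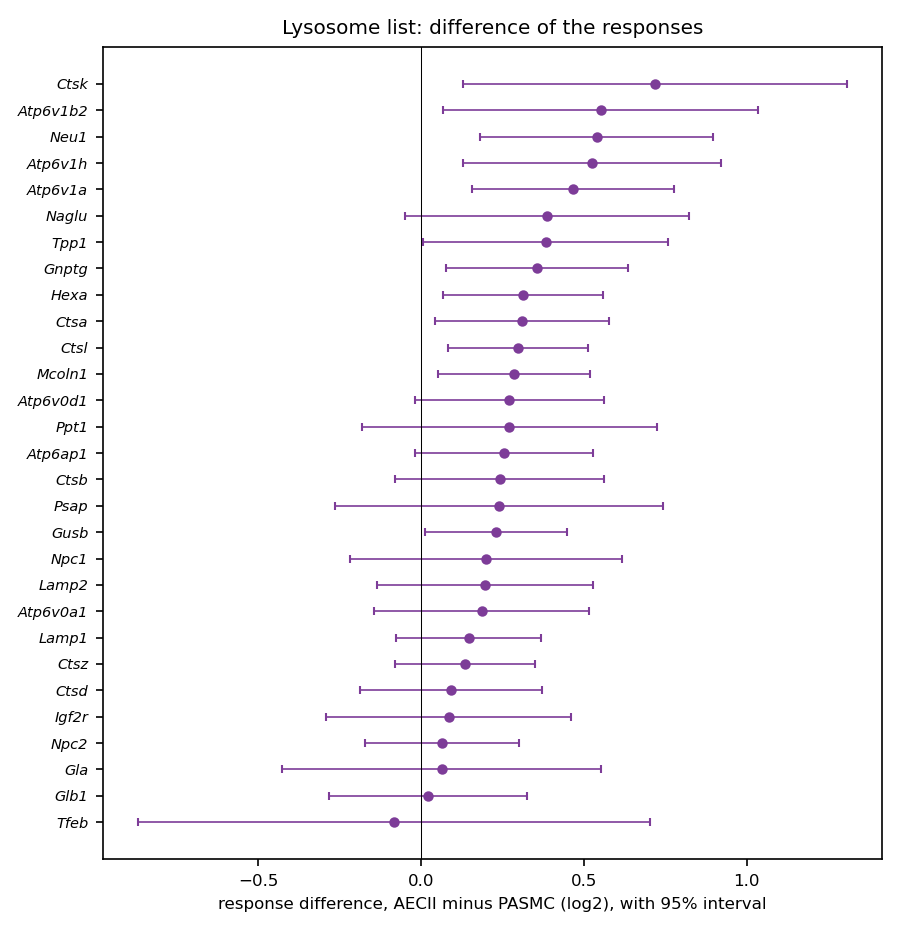
Response difference (AECII minus PASMC, log2) of the 29 tested lysosome genes with 95% intervals from limma, ordered by size. The intervals of 12 genes lie above 0 before any adjustment, Ctsk has the largest estimate (0.72) and Tfeb the only negative one (-0.08).

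Many lysosome genes carry the CLEAR element. RefSeq promoters (GRCm38.p6, the 250 bases before each start) were therefore searched on both strands for CACGTG. The longer TCACGTGA, which contains it, was searched too. Since such genes are known for this element, its share in the list is no result of these arrays. CACGTG was found for 11 of the 25 lysosome genes with a promoter in the table (44.0%) and for 9.19% of the 11713 tested genes with one. TCACGTGA was found for 7 of those 25 and for 1.58% of those 11713. In promoters of this length CACGTG was present in 36.7% of the list's promoters and in 7.69% of those of all tested genes. CACGTG was also found for 4 of 17 autophagy genes (23.5%), Fnip1 among them. Among the 10 genes named on the positive side it was found only for Vps26a, 1 of 8 with a promoter (12.5%), near the share of tested genes with a promoter. On the negative side it was found for 0 of 8. The stretches below show the motif in capitals in genes whose values are given here, so that its place and surroundings can be compared. They lie at chr2:164833721-164833772 on the plus strand (Ctsa), chr8:3500408-3500493 plus (Mcoln1), chr8:13159060-13159145 plus (Lamp1), chr11:101069981-101070066 plus (Naglu), chr13:64370711-64370770 minus (Ctsl), chr16:44139345-44139430 minus (Atp6v1a), chr17:25240117-25240177 minus (Gnptg), chr11:54438064-54438149 plus (Fnip1) and chr10:62486728-62486813 minus (Vps26a).
Ctsa: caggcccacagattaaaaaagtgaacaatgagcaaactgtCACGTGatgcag
Mcoln1: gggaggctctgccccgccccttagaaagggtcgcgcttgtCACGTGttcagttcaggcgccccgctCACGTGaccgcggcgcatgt
Lamp1: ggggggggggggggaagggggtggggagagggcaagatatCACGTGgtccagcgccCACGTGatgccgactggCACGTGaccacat
Naglu: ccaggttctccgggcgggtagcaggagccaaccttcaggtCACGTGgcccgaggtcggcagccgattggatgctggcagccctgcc
Ctsl: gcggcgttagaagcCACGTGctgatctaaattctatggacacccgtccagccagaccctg
Atp6v1a: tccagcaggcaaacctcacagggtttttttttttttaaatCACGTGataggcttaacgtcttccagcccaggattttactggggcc
Gnptg: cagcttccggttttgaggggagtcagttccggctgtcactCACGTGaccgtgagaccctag
Fnip1: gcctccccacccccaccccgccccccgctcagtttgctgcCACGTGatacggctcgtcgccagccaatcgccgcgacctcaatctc
Vps26a: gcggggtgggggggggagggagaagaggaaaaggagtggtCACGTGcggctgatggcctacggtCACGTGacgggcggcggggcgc

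The stretches of Ctsa, Ctsl, Atp6v1a, Gnptg, Fnip1 and Naglu show 1 copy, those of Mcoln1 and Vps26a 2 copies, and that of Lamp1 3 copies. Within the lysosome list, the 11 genes with CACGTG had a median response difference of 0.29 (PASMC -0.24) and the 14 without it 0.25 (PASMC -0.19). Outside the list, 1066 tested genes with CACGTG had a median of 0.026 and 10622 without it 0.0009, and 2.72% of those with it against 1.59% of those without it had a positive response difference at an unadjusted p under 0.05. For the longer TCACGTGA, the 7 list genes with it had a median of 0.29, with 57.1% at an unadjusted p under 0.05 on the positive side, and the 18 without it 0.25, with 33.3%. Outside the list, 178 genes with TCACGTGA had a median of 0.063, with 4.49% at that level, and 11510 without it 0.0022, with 1.65%. The search describes letters in a window and shows no binding.

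Autophagy genes and the regulators of TFEB ran in the same direction with smaller values. Of 22 genes, all tested, 19 had a positive response difference, the median was 0.21, 4 were at an unadjusted p under 0.05 on the positive side (18.2%, against 1.83% of all genes) and 0 on the negative side. The medians were -0.00 in AECII and -0.12 in PASMC, where 7 were lower at that level (against 2.58% of all genes). Fnip1 was at 8.02, 8.19 and 8.67 in AECII.18mg and at 7.81, 8.03 and 8.79 in AECII.Ctrl, and at 7.88, 8.25 and 8.42 in PASMC.18mg against 8.28, 8.64 and 8.81 in PASMC.Ctrl. Its response difference was 0.51 (SE 0.18, limma unadjusted p = 0.0076, adjusted p = 1.00), and all 8 PASMC.18mg arrays lay below the PASMC.Ctrl mean. Fnip2 gave 0.47 (SE 0.20) and -0.57 in PASMC, and 0.27 without the PASMC arrays of high Sftpc. Folliculin, Flcn, gave 0.37 (SE 0.16), and Atg7, the enzyme that activates the ubiquitin-like proteins of autophagosome formation, 0.30 (SE 0.13), or 0.17 without those arrays. The mean over the list was 8.35, 8.43 and 8.64 in AECII.18mg and 8.25, 8.37 and 8.56 in AECII.Ctrl. It was 8.64, 8.74 and 8.79 in PASMC.18mg, against 8.73, 8.85 and 8.98 in PASMC.Ctrl, with overlap in both cell types.

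NRF2 target genes had a positive response difference of about the same size, but here the difference lay in AECII. Of 32 genes 31 were on the table and tested, 28 had a positive response difference, and the median was 0.20. All 31 were above 0 in AECII, with a median of 0.22, and 18 of 31 in PASMC, with a median of 0.02. Of all genes 54.6% were above 0 in AECII and 51.7% in PASMC. In AECII, 2 of the 31 were higher in 18mg at an unadjusted p under 0.05 (against 1.29% of all genes). This list too was written with earlier results on these arrays known. At an unadjusted p under 0.05, 2 had a positive response difference (6.45%, against 1.83% of all genes), 0 a negative one, and 0 passed adjustment. With 1 array left out this count ran from 0 to 4, and the median from 0.13 without AECII.Ctrl array 6 to 0.26 without AECII.18mg array 7. The mean over the list was 11.14, 11.42 and 11.72 in AECII.18mg and 10.84, 11.21 and 11.38 in AECII.Ctrl, and 9.38, 9.67 and 9.82 in PASMC.18mg against 9.25, 9.66 and 9.83 in PASMC.Ctrl. The AECII groups overlapped and the PASMC groups coincided.

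The 2 genes with a positive response difference at that level were Hmox1, heme oxygenase 1, and Cbr3, a carbonyl reductase. Cbr3 was at 11.66, 11.87 and 12.32 in AECII.18mg, against 11.07, 11.56 and 11.93 in AECII.Ctrl, and at 10.47, 10.77 and 10.91 in PASMC.18mg against 10.27, 10.68 and 10.82 in PASMC.Ctrl. All 8 AECII.18mg arrays lay above the AECII.Ctrl mean, the AECII change was 0.44 (SE 0.11, adjusted p = 1), and the response difference was 0.34 (SE 0.16, limma unadjusted p = 0.040, adjusted p = 1.00), or 0.20 without the PASMC arrays of high Sftpc. Hmox1 was at 11.82, 12.57 and 13.31 in AECII.18mg, against 11.43, 12.01 and 12.65 in AECII.Ctrl. It was at 12.65, 13.77 and 14.71 in PASMC.18mg, against 12.77, 14.07 and 14.69 in PASMC.Ctrl. The groups overlapped widely in both cell types, and the response difference of 0.80 (interval 0.07 to 1.53, limma unadjusted p = 0.034, adjusted p = 1.00) joined 0.51 in AECII to -0.30 in PASMC. The glutathione synthesis genes Gclc and Gclm had 0.40 (SE 0.21) and 0.36 (SE 0.20), in this order, and Nqo1, a quinone reductase often used to read NRF2, had 0.13 (SE 0.34), with 0.36 in AECII and 0.23 in PASMC. Gsta1, a glutathione transferase, had 0.15 (SE 0.38), with 0.50 in AECII, where all 8 arrays lay above the control mean, and 0.35 in PASMC, where it lay near background at 2.87 to 4.46 in 18mg and 2.22 to 4.65 in Ctrl.

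The antioxidant response element, searched as TGACNNNGC on both strands, was found in the promoter of 6 of 26 genes of the NRF2 list (23.1%). It was found for 13.7% of tested genes with a promoter and 8 of the 25 lysosome genes. It is shown in capitals for Gclm (chr3:122245383-122245471, plus strand) and Prdx1, a peroxiredoxin (chr4:116685426-116685514, plus strand), both of which carry it on the opposite strand.
Gclm: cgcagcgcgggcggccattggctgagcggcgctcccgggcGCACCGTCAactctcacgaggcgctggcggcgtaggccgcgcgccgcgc
Prdx1: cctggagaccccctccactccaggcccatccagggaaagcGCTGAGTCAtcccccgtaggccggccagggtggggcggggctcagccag

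Further lists leaned to the positive side. The integrated stress response list, targets of ATF4, had 26 of 28 genes above 0 and a median of 0.12, with 0.10 in AECII and -0.05 in PASMC, and 3 genes at an unadjusted p under 0.05 on the positive side (10.7%). For this and the next lists the share of all genes at that level is 1.83%. These were Ddit3, a pro-apoptotic factor (0.60, SE 0.22), the seryl-tRNA synthetase Sars (0.30, SE 0.12) and the secreted Stc2 (0.70, SE 0.30). Ddit3 was at 6.14, 6.85 and 7.29 in AECII.18mg and at 6.03, 6.48 and 6.87 in AECII.Ctrl, and at 8.55, 8.81 and 9.27 in PASMC.18mg against 8.69, 9.21 and 9.40 in PASMC.Ctrl, with overlap in both. Hypoxia and glycolysis genes had 25 of 30 above 0 and a median of 0.18, with 0.03 in AECII and -0.14 in PASMC, and 0 genes at that level. Metallothionein and iron genes had 12 of 15 above 0 and a median of 0.13, and 2 at that level were Slc40a1, the iron exporter ferroportin (0.87, SE 0.35), and Fth1, ferritin heavy chain (0.23, SE 0.09). Slc40a1 gave 1.37 without the PASMC arrays of high Sftpc.

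Cell-cycle genes leaned the other way, with 28 of 32 below 0 and a median of -0.15. The AECII median was 0.01 and the PASMC median 0.18, where 6 genes were higher in 18mg at an unadjusted p under 0.05 (against 1.92% of all genes), but 0 had a response difference at that level. Cenpe, a mitotic motor, had -0.32 (SE 0.19) and the mitotic kinase Plk1 -0.39 (SE 0.24). Interferon-stimulated genes had 23 of 26 below 0 and a median of -0.15 with 0 at that level. This median depended on single arrays, since it was -0.37 without PASMC.18mg array 5, 0.006 without PASMC.18mg array 2, 0.07 without PASMC.Ctrl array 2 and 0.02 without the PASMC arrays of high Sftpc. Contractile genes had 16 of 20 below 0 and a median of -0.05, and surfactant and lamellar body genes 12 of 17 below 0 and a median of -0.12, both with 0 at that level. Leaving out 1 array turned these signs too: the contractile median was 0.004 without PASMC.18mg array 7 and the surfactant median 0.035 without PASMC.Ctrl array 2. The smooth muscle markers had a median change of 0.24 in PASMC, with list means of 9.48 to 10.87 in 18mg and 9.35 to 10.57 in Ctrl. The part of these marker levels in the list values was not tested. Medians of the remaining lists lay between -0.08 and 0.20, and apart from the nicotinic receptor, NAD and vascular tone lists they held 0 genes at an unadjusted p under 0.05.

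**Figure D5:**
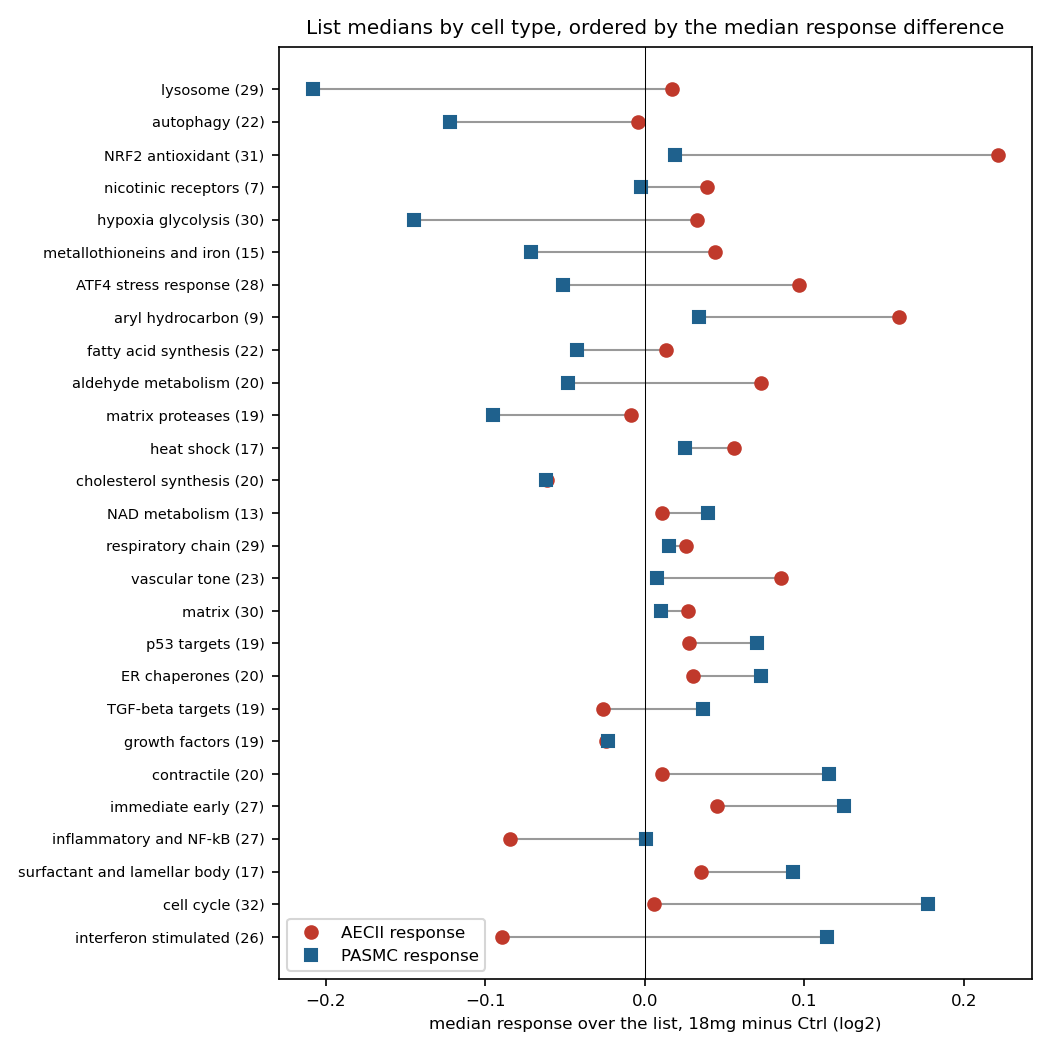
Median response (log2, 18mg minus Ctrl) of 27 gene lists in AECII (circles) and PASMC (squares), ordered from top to bottom by the median response difference, with the number of tested genes in brackets. Lysosome (-0.21) and hypoxia (-0.14) genes stand out below 0 in PASMC, cell-cycle genes (0.18) above 0 in PASMC, and NRF2 genes (0.22) above 0 in AECII.

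Genes of nicotinic receptors were mostly too dim to test. Of 17 genes on the array, which include Lynx1 beside the receptor subunits, 7 passed the filter, Lynx1 among them. A gene could pass it through 1 cell type alone. Chrna1 averaged 6.97 in PASMC.18mg and 6.76 in PASMC.Ctrl, against 3.54 in AECII.18mg and 3.03 in AECII.Ctrl. Chrnb1 averaged 6.85 in AECII.18mg and 6.81 in AECII.Ctrl, against 3.68 in PASMC.18mg and 3.75 in PASMC.Ctrl. Chrna7, the subunit of the homomeric receptor, was at 3.44, 3.85 and 4.89 in AECII.18mg, against 2.41, 3.30 and 3.78 in AECII.Ctrl, and at 2.32, 3.79 and 4.65 in PASMC.18mg against 3.36, 3.88 and 5.02 in PASMC.Ctrl. The groups overlapped in both cell types near the array median, and the response difference of 0.94 (SE 0.38, limma unadjusted p = 0.018, adjusted p = 1.00) was 0.25 with the mean of all its probes. Chrna4 went the other way at -0.76 (SE 0.31, limma unadjusted p = 0.019, adjusted p = 1.00), at 2.01 to 3.05 in AECII.18mg and 2.31 to 3.78 in AECII.Ctrl, within the background range. Of the vascular tone genes, 2 of 23 were at an unadjusted p under 0.05 on the positive side (against 1.83% of all genes), both of them phosphodiesterases that break down cyclic nucleotides. Pde3a (0.91, SE 0.28, limma unadjusted p = 0.0031, adjusted p = 1.00) was at 2.04, 2.77 and 3.65 in AECII.18mg, against 2.03, 2.39 and 2.64 in AECII.Ctrl, near background, and at 3.61, 4.81 and 5.33 in PASMC.18mg, against 4.84, 5.11 and 5.82 in PASMC.Ctrl. Pde5a (0.84, SE 0.36, limma unadjusted p = 0.025, adjusted p = 1.00) reached at most 4.48 on the 32 arrays and gave 0.53 with array weights. Acta2 had a response difference of -0.02 (interval -0.83 to 0.78) and Sftpc of -0.43 (interval -4.25 to 3.38), so that for Sftpc even large differences were not detectable.

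The extract of the liquid with 0 mg/ml nicotine is set beside these values, with the reminder that both extracts were compared with the same Ctrl arrays and therefore share their error. The response difference of Nampt was 0.67 for 18 mg/ml and 0.34 for 0 mg/ml. It was 0.93 and 0.73 for Uap1l1 and 0.46 and 0.33 for Slc6a8, at 18 and 0 mg/ml in this order. It was 0.64 and 0.49 for Lgals3, and 0.87 and 0.58 for Wdr20. For the lysosome list the median was 0.25 at 18 mg/ml and 0.19 at 0 mg/ml, for the autophagy list 0.21 and 0.09, and for the NRF2 list 0.20 and 0.16. Gmeb1 had -0.87 for 18 mg/ml and -0.24 for 0 mg/ml. Hmox1 had 0.80 for 18 mg/ml and 0.07 for 0 mg/ml, but the second value rests on AECII.0mg array 2 (8.29, the others 11.47 to 12.61) and was 0.57 without it, a setting chosen after seeing the data.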

How the data were processed

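Total RNA of 48 cultures was measured on single-colour Agilent arrays. The deposited values are log2 intensities, and their quantiles are nearly the same on every array, so no further normalisation was applied; how the authors normalised them is not given in the sources used here, and limma is named in the submitters' processing notes without a version. From 62976 features, 31465 had a gene name through the platform annotation, and 28 values were missing. Of these names 29050 were looked up by accession, and 3282 symbols changed in the update. The probe of highest mean over all 48 arrays stood for a gene, which left 20738 genes. Genes with a mean above the 30th percentile of named-probe means (2.73) were kept, leaving 14753.

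The 4 groups of 8 arrays were fitted together with limma 3.58.1 in R 4.3.3 (lmFit and eBayes, no covariate), with p-values adjusted by Benjamini-Hochberg over all genes tested and a threshold of 0.05. The fit was tested on simulated data. Named genes were, per direction, the called genes up to 10, filled by smallest p among genes with a mean above 5.78 in both cell types, then up to 3 genes of smallest p per list and a set of readouts. The members and lists were chosen with earlier results of these data known. Alternatives covered the block, filter, normalisation, spread, probe summary and each array left out. The number of arrays limits the precision.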

Additional observations from a re-analysis of the deposited data

Results flagged for a closer look

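In groups of 8 arrays, single arrays were compared with the other 7 by Dixon's ratio for 61 genes and 27 list means in each of 4 groups. Of 352 such groups 24 (6.82%) had an array set apart, where chance gives about 5%. The values follow with no explanation.

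PASMC.Ctrl array 3 was lowest for Hmox1 (12.77, the others 13.88 to 14.69) and Txnrd1 (11.12, the others 12.03 to 12.63). It was also lowest in the list means of growth factor genes (7.93), nicotinic receptors (3.93) and p53 targets (8.89). PASMC.Ctrl array 2 was lowest for Zfp352 (4.21, the others 5.76 to 6.19) and Cyp1b1 (10.07), and highest for Aldh3a1 (7.47). It was lowest in the list means of matrix genes (9.54) and matrix proteases (8.80). PASMC.Ctrl array 7 was highest in the respiratory chain mean (12.06).

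Among PASMC.18mg arrays, array 2 was lowest for Ctsk (10.59, the others 10.94 to 11.11), array 3 lowest for Fanca (7.45), and array 5 highest for Mtf2 (6.73) and lowest in the matrix mean (9.62). The low Ctsk array lies on the side of its response.

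Nqo1 was lowest on AECII.18mg array 7 (7.88, the others up to 9.89) and on AECII.Ctrl array 6 (7.49, the others 8.57 to 9.23). The aryl hydrocarbon receptor list, which reads xenobiotic enzymes, was lowest on the same arrays, at 8.56 on AECII.18mg array 7 and 8.38 on AECII.Ctrl array 6. AECII.Ctrl array 6 was also lowest for Fth1 (14.65). AECII.18mg array 6 was highest in the autophagy mean (8.64) and AECII.18mg array 8 in the interferon mean (6.71). AECII.Ctrl array 8 was highest in the growth factor mean (7.35), and AECII.Ctrl array 3 lowest in the surfactant mean (8.86).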

How the results depend on the processing

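Beside the reported fit, 13 other settings and 32 with 1 array left out were run. The count of genes higher in the response difference was 1 with array weights (Nampt, 0.74, adjusted p = 0.0377) and 0 in the other settings, where limma left 221 to 660 genes of either direction at an unadjusted p under 0.05. The count of genes lower in PASMC, 4 as reported, was 2 with the replicate block (Nampt and Uap1l1 remained called), 7 with array weights, 0 with an own spread for each cell type and 0 without the PASMC arrays of high Sftpc. It ranged from 0 (without PASMC.Ctrl array 5) to 6 (without PASMC.Ctrl array 2) with 1 array left out, and the count of genes higher in PASMC from 0 to 1, the gene being Kirrel3 without AECII.18mg array 8, PASMC.18mg array 6 or PASMC.Ctrl arrays 1 or 8. Slc6a8 also lost its call with accession runs as a block and with no filter. Reversed values were -0.023 for Gsta1 with array weights and, without the arrays of high Sftpc, -0.012 for Nqo1, 0.77 for Sftpc and 0.015 for Cyp1a1. With 1 array left out, ranges that crossed 0 were -0.054 to 0.32 for Nqo1, -0.031 to 0.32 for Gsta1, -0.19 to 0.13 for Acta2 and -1.22 to 0.28 for Sftpc. The cause was not tested. No list median moved by more than its spread between arrays, which was wide for some lists, at 0.60 for interferon and 0.76 for surfactant genes. For such lists a change of sign stays within the spread, so this comparison shows little about them. With 1 array left out, 16 of 27 list medians changed sign and 11 kept it, those of the lysosome, autophagy, NRF2, ATF4, hypoxia, iron and cell-cycle lists among them. Deviations of 48 same-numbered pairs of arrays from different groups correlated at 0.017 on average, from -0.40 to 0.27, and 9 exceeded 0.1. For 336 differently numbered pairs the average was -0.002, from -0.43 to 0.61, and 37 exceeded 0.1. The numbers thus gave no clear pairing, but some arrays of different groups deviated together, and a shared mouse could not be checked.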

Other observations

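Of the features without a gene name, 11504 passed the filter, and limma called 0 of them in the response difference, with 386 at an unadjusted p under 0.05.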
